A study of Homo sapiens with 6 samples.

Results

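Chromatin accessibility was examined around 9 genes that mark the trophoblast, the lineage that gives rise to the placenta, in naive human embryonic stem (nES) cells. The genes were the keratins KRT7, KRT8, KRT18 and KRT19, the surface genes ENPEP, CCKBR, SDC1 and ITGA6, and the hormone subunit gene CGA. The peaks were chosen by position only, as those that lay inside or within 30 kb of the annotation of one of these genes on hg38 (GENCODE release 44). This gave 119 of the 171517 peaks in the counts table, and 19 of the 119 lay within reach of both KRT8 and KRT18, which are neighbours.

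ATAC-seq uses a transposase that cuts open chromatin, so that more reads fall where DNA is more accessible. The 6 libraries came from the established human embryonic stem cell line H9. All cells grew in tt2iLGö, a naive medium of N2B27 with PD0325901 (an inhibitor of MEK), CHIR99021 (an inhibitor of GSK3), Gö 6983 (an inhibitor of protein kinase C) and human LIF, and had been separated from their mouse feeder cells and plated on laminin. For the last 24 h, 3 cultures received 4 mM dm-αKG, a cell-permeable form of α-ketoglutarate, and 3 were controls, which the sample labels name DMSO and the protocol gives as 0 mM dm-αKG. Libraries are named by treatment and replicate number, as control 1 or dm-αKG 3. The experiment was done once, with one cell line, and the methods call the 3 cultures of each treatment biological replicates. The libraries held between 13025674 and 26828622 counts in peaks. Pairs of libraries of the same treatment correlated at r between 0.942 and 0.966 across peaks and pairs of different treatments between 0.911 and 0.928, with peaks that are not independent replicates. Peaks lay within 1 kb of a transcript start for 10 of 11 genes of a list of naive pluripotency markers, and these 10 summed to between 4313 and 4398 normalized counts in controls and between 4323 and 4436 with dm-αKG. The same sums for 6 of 8 mesoderm and fibroblast markers were 1246 to 1304 in controls and 1317 to 1345 with dm-αKG, and their part in the results was not tested.

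Keratins build the intermediate filaments of epithelial cells from pairs of a type I and a type II protein. KRT8 (type II) and KRT18 (type I) form the pair of simple epithelia, including trophectoderm, while KRT7 (type II) and KRT19 (type I) are widely used as trophoblast markers. Of the surface genes, ENPEP encodes aminopeptidase A, which cleaves angiotensin II. CCKBR encodes the receptor of gastrin and cholecystokinin, SDC1 the heparan sulfate proteoglycan syndecan-1, abundant on syncytiotrophoblast, and ITGA6 the α6 integrin subunit, part of a laminin receptor of villous cytotrophoblast. CGA encodes the α subunit that chorionic gonadotropin shares with the pituitary glycoprotein hormones. Accessibility of a peak is not transcription, and neither the RNA nor the protein of these genes was analysed here.

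Around these genes, dm-αKG moved a limited number of peaks, by less than 2-fold, and in both directions. Under the strict rule (an adjusted p under 0.01 together with a log2 fold change beyond 1 in either direction, edgeR's quasi-likelihood test with Benjamini-Hochberg adjustment over the whole table), 0 of 119 peaks were called, where 2.74% of all peaks were (1.96% less and 0.782% more accessible). DESeq2 also called 0, and 36 of the 119 had an unadjusted p below 0.05 in edgeR. Without the fold threshold, 10 of 119 (8.4%) had an adjusted p below 0.01 beside 9.88% of all peaks, with 6 lower (background 6.54%) and 4 higher (background 3.34%). At an adjusted p below 0.05, the threshold used from here on for the words rose and fell, 19 of 119 (16.0%) changed, beside 18.0% of all peaks. Of these, 8 became less accessible (background 10.5%) and 11 more accessible (background 7.43%). The balance of directions depended on the test and on single libraries, with 6 less and 4 more accessible by DESeq2 and 7 less and 4 more without control 1. The share that changed was near that of the table as a whole. The 3 control and 3 dm-αKG libraries did not overlap at 41 of 119 peaks (34.5%), beside 32.4% of all peaks, with 22 lower (background 16.9%) and 19 higher (background 15.5%) after treatment. The median log2 fold change was 0.07 over the 119 peaks and 0.01 over all peaks, and the members ranged from -0.9 to 0.89. Both extremes were weak peaks, of KRT7 and ITGA6, with means of 9.96 and 12.4 normalized counts. Neither passed (adjusted p of 0.212 and 0.171 in edgeR).

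By gene, beside the 10.5% of all peaks that fell and the 7.43% that rose, KRT19 had 4 peaks that fell and 1 that rose among 14, KRT8 had 2 that fell and 5 that rose among 30, and KRT18 had 2 that fell and 4 that rose among 20, the last 6 all shared with KRT8. ITGA6 had 1 that fell and 3 that rose among 19, SDC1 had 1 of each among 13, and KRT7 had 1 that rose among 14. ENPEP, CCKBR and CGA had 0 changed peaks among 14, 11 and 3, with 1, 2 and 0 at an unadjusted p below 0.05 in edgeR, and DESeq2 gave 0 for them as well. Over the 4 keratins, 13 of 59 peaks changed (22.0%), and over the other 5 genes, 6 of 60 (10.0%), beside 18.0% of all peaks. The difference between these shares was not tested.

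**Figure D1:**
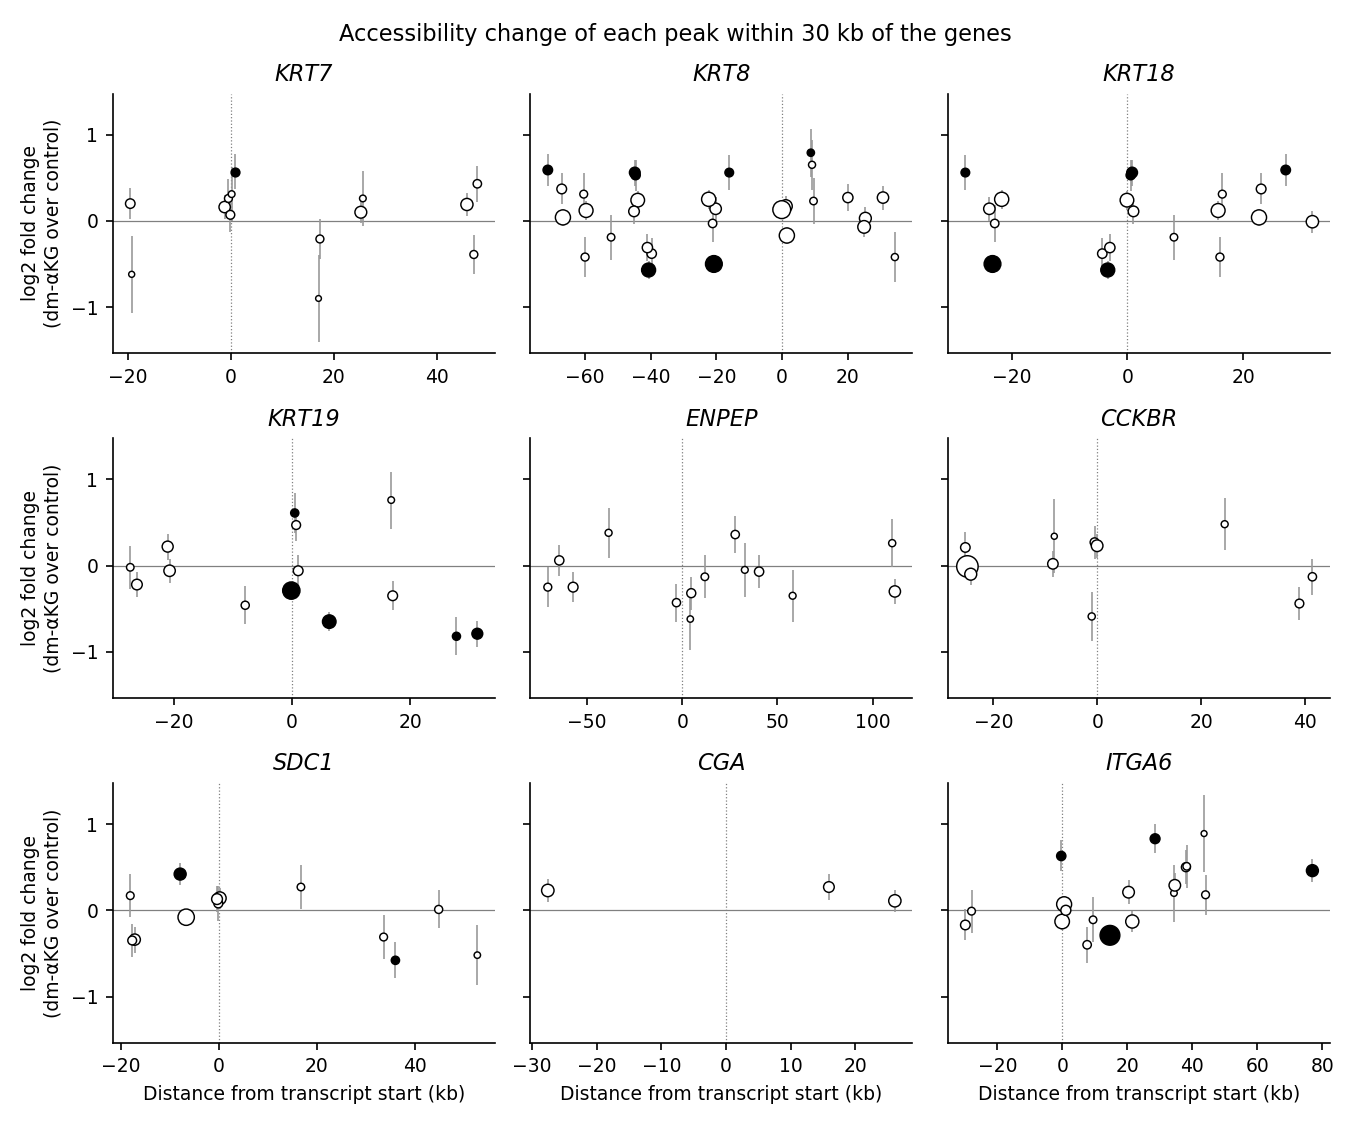
Log2 fold change (dm-αKG over control, y axis) of every peak within 30 kb of each gene against the distance of the peak's centre from the gene's canonical transcript start in kb (x axis, positive in the direction of transcription), with bars of 1 standard error. Filled points have an adjusted p below 0.05 and point size grows with the mean normalized count, capped for the strongest peaks; KRT19 has 4 filled points below 0 and 1 above, and ENPEP, CCKBR and CGA have none.

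The sequences of the 8 peaks with the smallest p-values, which carry the changes described next, and of the KRT7 promoter peak, centred 510 bp from the nearest KRT7 start, are given from the hg38 plus strand. Stretches that GENCODE annotates as untranslated were left out. Capitals mark matches on either strand to short consensus letters of factor families of trophoblast, pluripotent or stressed cells. These were TGANTCA (AP-1), TGACNNNGC (NRF2), CATTCC (TEAD), CCNCACCC (KLF), GCCNNNGGC (TFAP2) and TGTTTAC (FOX). The letters of 5 other families that were searched (OCT, SOX, GATA, ETS and GRHL) had no match in these sequences, and AP-1 and NRF2 matches can overlap. A match is a run of letters and was not tested as a binding site.
KRT15 intron peak near KRT19, fell, chr17:41521912-41522120: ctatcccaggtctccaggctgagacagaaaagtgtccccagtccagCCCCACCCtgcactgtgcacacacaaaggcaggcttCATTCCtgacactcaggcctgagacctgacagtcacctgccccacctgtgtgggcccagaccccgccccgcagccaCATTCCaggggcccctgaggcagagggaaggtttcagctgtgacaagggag
Intergenic peak near KRT19, fell, chr17:41496823-41497043: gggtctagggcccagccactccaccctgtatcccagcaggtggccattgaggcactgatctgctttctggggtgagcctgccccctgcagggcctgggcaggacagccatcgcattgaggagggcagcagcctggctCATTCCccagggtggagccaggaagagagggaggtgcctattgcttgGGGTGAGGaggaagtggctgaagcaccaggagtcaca
Second intergenic peak near KRT19, fell, chr17:41500368-41500568: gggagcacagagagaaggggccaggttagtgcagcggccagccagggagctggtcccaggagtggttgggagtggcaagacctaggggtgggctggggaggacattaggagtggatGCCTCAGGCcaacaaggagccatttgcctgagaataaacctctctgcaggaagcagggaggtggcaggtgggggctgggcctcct
KRT8 intron peak, fell, chr12:52925731-52925937: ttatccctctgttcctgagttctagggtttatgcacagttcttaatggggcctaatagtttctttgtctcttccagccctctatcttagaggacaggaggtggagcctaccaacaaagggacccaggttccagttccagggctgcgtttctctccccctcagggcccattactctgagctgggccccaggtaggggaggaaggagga
Peak upstream of KRT18, fell, chr12:52945596-52945846: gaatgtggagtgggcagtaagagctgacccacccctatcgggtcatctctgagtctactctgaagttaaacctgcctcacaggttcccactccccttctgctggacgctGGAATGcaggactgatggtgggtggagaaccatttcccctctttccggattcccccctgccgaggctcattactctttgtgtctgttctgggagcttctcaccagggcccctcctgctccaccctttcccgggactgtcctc
KRT18 first intron peak, rose, chr12:52949883-52950029: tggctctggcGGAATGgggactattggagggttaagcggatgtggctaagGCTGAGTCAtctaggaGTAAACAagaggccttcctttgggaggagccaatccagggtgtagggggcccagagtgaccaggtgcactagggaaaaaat
ITGA6 first intron peak, rose, chr2:172456043-172456250: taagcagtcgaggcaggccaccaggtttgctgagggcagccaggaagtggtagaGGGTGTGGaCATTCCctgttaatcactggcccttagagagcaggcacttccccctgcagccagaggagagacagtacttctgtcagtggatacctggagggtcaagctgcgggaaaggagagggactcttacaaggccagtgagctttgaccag
Strongest ITGA6 intron peak, fell, chr2:172442155-172442358: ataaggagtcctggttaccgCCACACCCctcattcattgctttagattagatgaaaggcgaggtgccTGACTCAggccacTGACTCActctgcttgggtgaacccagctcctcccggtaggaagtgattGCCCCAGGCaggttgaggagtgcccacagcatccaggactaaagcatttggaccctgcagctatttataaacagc
KRT7 promoter peak, not past the test, chr12:52231907-52232114: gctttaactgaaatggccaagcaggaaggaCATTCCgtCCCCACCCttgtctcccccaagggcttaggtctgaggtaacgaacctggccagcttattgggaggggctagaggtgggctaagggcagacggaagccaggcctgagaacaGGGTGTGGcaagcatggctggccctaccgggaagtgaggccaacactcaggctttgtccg

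The promoter peaks, taken as the peak of highest mean within 1 kb of a transcript start of the gene, moved in 1 of 7 genes. Only KRT19 passed the test, and it fell. This rule keeps 1 peak per gene. Of all 27 peaks within 1 kb of a start of a member gene, 2 fell and 5 rose (25.9%), beside 14.6% of all peaks within 1 kb of any start. KRT19 (chr17:41523617-41528308, minus strand) had its promoter peak at chr17:41528341-41528541, centred 133 bp upstream of the start. The 3 controls gave 408, 406 and 436 normalized counts and the 3 dm-αKG libraries gave 361, 364 and 283. All treated libraries lay under all controls, and dm-αKG 3 was the lowest. The log2 fold change was -0.29 ± 0.09 (SE), a decrease of the mean from 417 ± 16.8 to 336 ± 46.0 (SD, n = 3 each), with an adjusted p of 0.0143. The call was lost without control 3 (-0.26) or without dm-αKG 3 (-0.20), and with DESeq2 (-0.29).

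Among the promoters that did not pass, KRT18 came closest. Its peak at chr12:52948934-52949136, which spans the first exon's start, gave 207, 190 and 209 normalized counts in controls and 221, 237 and 262 with dm-αKG (log2 fold change 0.24 ± 0.11, adjusted p = 0.132). The 2 groups did not overlap. The KRT8 promoter peak, chr12:52905053-52905253, gave 382, 371 and 394 in controls and 363, 399 and 507 with dm-αKG (0.13 ± 0.09, adjusted p = 0.356). Here dm-αKG 1 was below every control and dm-αKG 3 far above them, and without dm-αKG 3 the log2 fold change was -0.01. The KRT7 promoter peak, chr12:52231907-52232114, gave 131, 127 and 141 in controls and 132, 164 and 153 with dm-αKG (0.16 ± 0.14, adjusted p = 0.467), with overlapping groups. CCKBR (0.23 ± 0.14), SDC1 (0.14 ± 0.12) and ITGA6 (0.07 ± 0.10) also had promoter peaks with overlapping groups and adjusted p-values of 0.246, 0.47 and 0.693. ENPEP and CGA had no peak within 1 kb of any of their transcript starts, the nearest peak centres lying 3018 and 15879 bp away, so their promoters could not be measured.

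**Figure D2:**
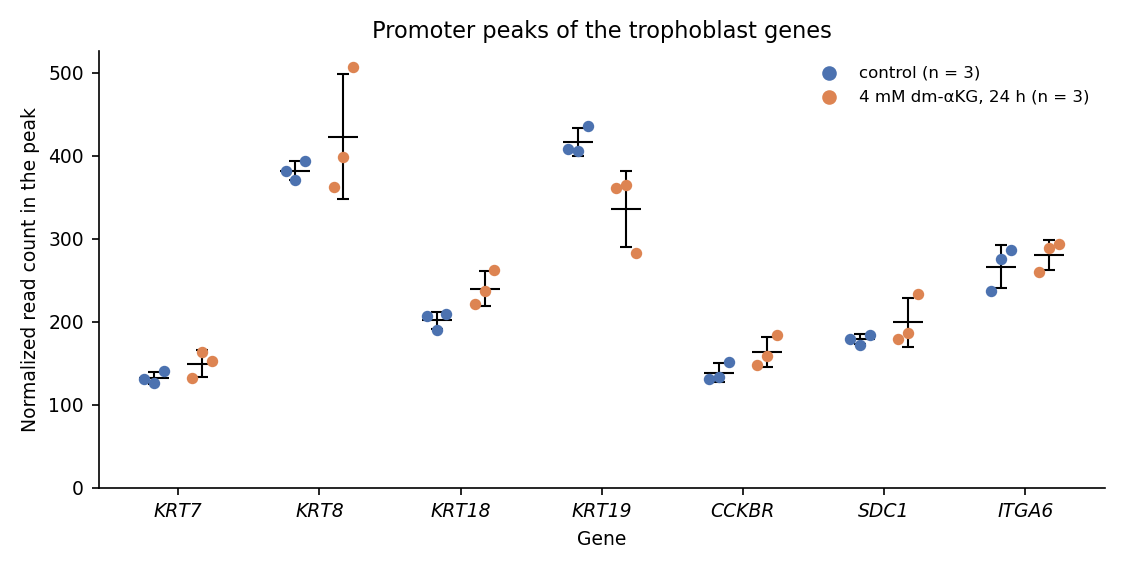
Normalized read count (y axis) of the promoter peak of each gene that had one (x axis), with 3 control (blue) and 3 dm-αKG (orange) libraries as points and the mean and SD as bars. The KRT19 libraries with dm-αKG sit between 283 and 364, all below the controls, and the KRT18 libraries between 221 and 262, all above the controls.

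KRT19 had the lowest log2 ratio of summed counts of the 9 genes, the others lying between -0.13 and 0.21. Summed over its 14 peaks, the normalized counts were 1701, 1778 and 1749 in controls and 1532, 1528 and 1362 with dm-αKG. The treated libraries were all lower. The means were 1743 ± 38.8 and 1474 ± 96.8, a log2 ratio of -0.24, and at 9 of the 14 peaks (64.3%, beside 32.4% of all peaks) the groups did not overlap, 7 of them lower (background 16.9%). The sums are given as a description, with no test.

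The peak of the region with the smallest p-value lay inside the neighbouring gene KRT15, a type I keratin of basal epithelial cells, in an intron 115 bp from a KRT15 start (chr17:41521912-41522120, beyond the 3′ end of KRT19). By the rule for promoter peaks it was the promoter peak of KRT15, so this peak cannot be assigned to KRT19 alone. It gave 243, 276 and 277 normalized counts in controls and 165, 182 and 159 with dm-αKG. The groups were clearly apart. The log2 fold change was -0.65 ± 0.11 (SE, adjusted p = 8.05e-06), that is, 1.57-fold higher in controls. A pair of intergenic peaks further along fell by a larger ratio. The peak at chr17:41496823-41497043 gave 149, 151 and 177 in controls and 79.6, 105 and 95.8 with dm-αKG (-0.79 ± 0.15, adjusted p = 5.62e-05). The peak at chr17:41500368-41500568, 515 bp from a start of the gene ENSG00000229732, gave 71.6, 74.0 and 69.2 in controls and 53.8, 37.2 and 24.0 with dm-αKG (-0.82 ± 0.22, adjusted p = 0.00548). In both, every treated library was below every control, and in the second the treated libraries were themselves wide apart. Without dm-αKG 1 its log2 fold change was -1.21, and it then passed the strict rule.

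Of the 3 peaks over KRT19 itself, 1 rose. This peak, over the end of exon 1 and the start of intron 1 (chr17:41527760-41527960), had 30.4, 55.1 and 48.6 normalized counts in controls and 64.5, 87.2 and 52.4 with dm-αKG (0.61 ± 0.23, adjusted p = 0.0478). dm-αKG 3 was within the range of the controls. The call was lost without control 1 (0.39), control 3 (0.66), dm-αKG 1 (0.66) or dm-αKG 2 (0.41), and with DESeq2 (0.61). The neighbouring intron 1 peak, chr17:41527505-41527738, went from 59.7 to 81.2 on average without overlap (0.47 ± 0.19, adjusted p = 0.0784). The last of the 3, chr17:41527173-41527385 in intron 1, went from 99.1 to 90.6 (-0.06 ± 0.18, adjusted p = 0.854). These peaks were weak beside the promoter peak, whose control mean was 417.

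KRT8 and KRT18 lie end to end on chromosome 12, KRT8 on the minus strand (chr12:52897187-52949954, with long transcripts that begin inside KRT18) and KRT18 on the plus strand (chr12:52948871-52952906). Between the 2 promoters 2 peaks fell and 1 rose, and within the body of KRT18 2 peaks rose. The smallest p-value lay in a KRT8 intron of the long transcripts, 635 bp from one of their starts (chr12:52925731-52925937). It gave 406, 405 and 423 normalized counts in controls and 282, 300.2 and 292 with dm-αKG. Each group was tight and the groups were far apart, with a log2 fold change of -0.50 ± 0.09 (SE, adjusted p = 1.36e-05). A peak 3150 bp upstream of the nearest KRT18 start, chr12:52945596-52945846, gave 307, 251 and 272 in controls and 174, 191 and 201 with dm-αKG (-0.57 ± 0.11, adjusted p = 7.41e-05). Its treated libraries were also all lower.

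In the first intron of KRT18 the reads increased. The peak at chr12:52949828-52950029 gave 98.4, 97.0 and 102 normalized counts in controls and 146, 133 and 160.2 with dm-αKG. The controls were nearly equal and all treated libraries were higher, with a log2 fold change of 0.56 ± 0.15 (SE, adjusted p = 0.00418), or 1.48-fold. The letters of AP-1, NRF2, TEAD and FOX all occurred in this peak, which was centred 8 bp from a KRT8 start. Just upstream, over the end of KRT18 exon 1, the peak at chr12:52949580-52949794 gave 65.3, 76.5 and 64.4 in controls and 107, 109 and 80.8 with dm-αKG (0.53 ± 0.18, adjusted p = 0.0268). Its centre lay 89 bp from a KRT8 start, so neither peak can be assigned to KRT18 alone. The groups did not overlap, but the call was lost with DESeq2 (0.53) and without control 1 (0.50), control 3 (0.50), dm-αKG 1 (0.47) or dm-αKG 2 (0.48). The next peak into the intron, chr12:52950052-52950270, went from 116 to 124 on average (0.11 ± 0.15, adjusted p = 0.671).

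The other KRT8 and KRT18 peaks past the threshold all rose, and each depended on single libraries. In a KRT8 intron, chr12:52921049-52921248 gave 55.5, 64.1 and 41.3 in controls and 70.3, 83.4 and 91.3 with dm-αKG (0.56 ± 0.20, adjusted p = 0.0419). The groups did not overlap, and the call was lost without control 1 (0.58), control 3 (0.42), dm-αKG 2 (0.53) or dm-αKG 3 (0.48), and with DESeq2 (0.58). Downstream of KRT8, chr12:52896192-52896391 gave 27.7, 25.5 and 27.9 in controls and 37.3, 35.9 and 71.9 with dm-αKG (0.79 ± 0.28, adjusted p = 0.0371). dm-αKG 3 stood far above the other treated libraries, and without it the log2 fold change was 0.44 and not past the threshold. The call was also lost without any of control 1 (0.82), control 2 (0.75) or control 3 (0.81), and with DESeq2 (0.81). Beyond KRT18, chr12:52976327-52976536 gave 61.7, 54.3 and 104 in controls and 121, 98.8 and 98.8 with dm-αKG (0.59 ± 0.18, adjusted p = 0.016). Here control 3 lay among the treated libraries. Without control 3 the log2 fold change was 0.89, and the call was lost without control 1 (0.49), control 2 (0.41) or dm-αKG 1 (0.47), and with DESeq2 (0.57). As sums over all their peaks, KRT8 (30 peaks) went from 4231 ± 62.2 to 4359 ± 96.6 normalized counts (log2 ratio 0.04), without overlap, and KRT18 (20 peaks) from 2841 ± 71.8 to 2862 ± 44.9 (0.01), with overlap.

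KRT7 (chr12:52232520-52252186, plus strand) had 14 peaks, of which 10 had a positive log2 fold change and 1 rose past the threshold. That peak lay in intron 1 (chr12:52233914-52234116). It gave 58.1, 60.0 and 52.2 normalized counts in controls and 77.5, 105 and 73.3 with dm-αKG (0.57 ± 0.20, adjusted p = 0.0308). All treated libraries were higher, dm-αKG 2 most of all. Without dm-αKG 2 the log2 fold change was 0.41 and the call was lost, as it also was without control 1 (0.59), control 2 (0.62) or control 3 (0.52), and with DESeq2 (0.58). The strongest KRT7 peak, chr12:52279035-52279239, lay in an intron of the neighbouring keratin gene KRT86, 19 bp from a start of the gene ENSG00000257830. It went from 155 ± 4.50 to 180.2 ± 19.5 (0.19 ± 0.13, adjusted p = 0.316). The sum over the 14 peaks was 893, 959 and 956 in controls and 989, 1049 and 1073 with dm-αKG, which did not overlap (log2 ratio 0.15).

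ITGA6 (chr2:172427354-172506459, plus strand) had changes in both directions within its long first intron. Its strongest peak, chr2:172442155-172442358, gave 521, 536 and 604 normalized counts in controls and 444, 413 and 501 with dm-αKG. All treated libraries were lower, dm-αKG 3 by a small margin to the lowest control. The log2 fold change was -0.29 ± 0.08 (SE, adjusted p = 0.00591), and the call was lost without control 3 (-0.23) or dm-αKG 2 (-0.24). This was the 1 of the 8 fallen members that held AP-1 letters. Further into the intron, chr2:172456043-172456250 gave 85.9, 64.1 and 59.5 in controls and 115, 126 and 139 with dm-αKG (0.83 ± 0.17, adjusted p = 0.000152). It rose 1.78-fold on average with no overlap, and without control 1, the highest control, the log2 fold change was 1.02 and passed the strict rule.

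The other ITGA6 peaks that rose were at the ends of the gene. At the start, chr2:172427164-172427363, 91 bp from the nearest ITGA6 start, gave 65.3, 64.1 and 65.6 in controls and 111, 83.4 and 103 with dm-αKG (0.63 ± 0.18, adjusted p = 0.00897). The controls were almost identical and all treated libraries lay above them, while the stronger peak 45 bp from a start, chr2:172427437-172427646, went from 269 to 244 (-0.13 ± 0.10, adjusted p = 0.423). At the other end, in the last exon, number 26, and in an intron of the antisense gene PDK1-AS1, chr2:172504466-172504674 gave 132, 142 and 134 in controls and 197, 185 and 177 with dm-αKG (0.46 ± 0.13, adjusted p = 0.00753). Both calls were lost without dm-αKG 1 (0.52 and 0.41). The sum over the 19 ITGA6 peaks overlapped between treatments, at 2376 ± 138 and 2468 ± 112 (log2 ratio 0.05).

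**Figure D3:**
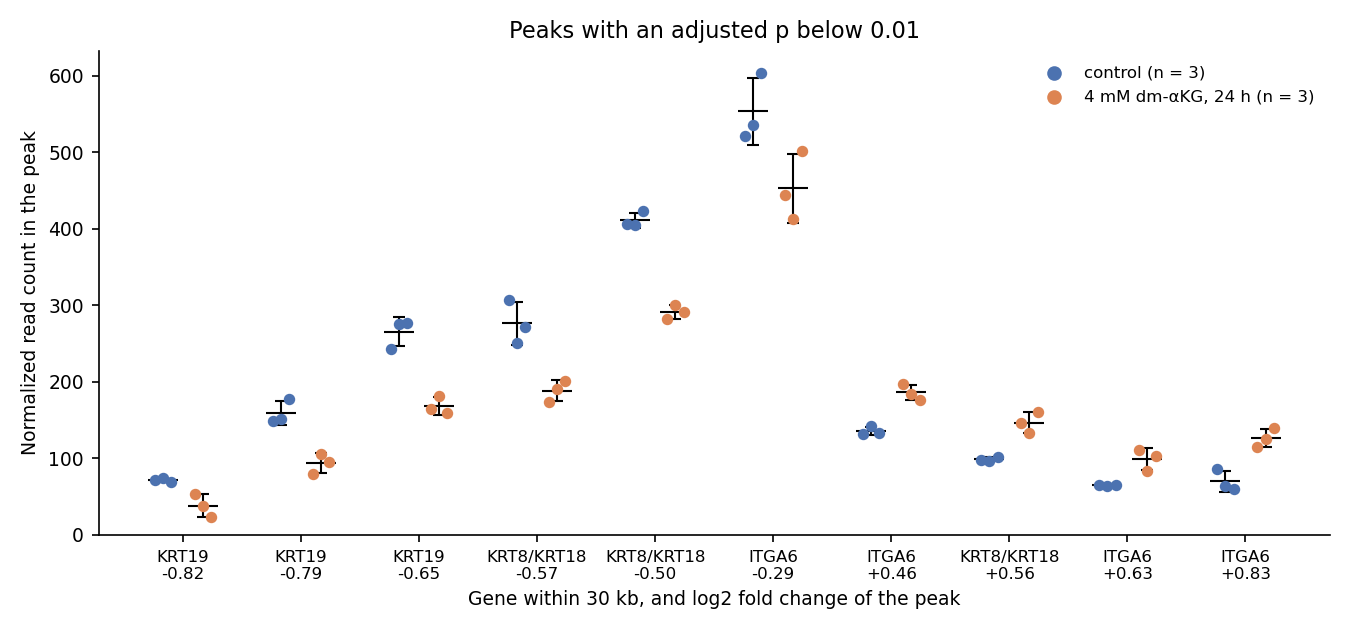
Normalized read count (y axis) in each library for the 10 peaks with an adjusted p below 0.01, ordered by log2 fold change and named by the gene within 30 kb (x axis), with the mean and SD of 3 control (blue) and 3 dm-αKG (orange) libraries. In all 10 peaks the treatments do not overlap; 6 fell, down to -0.82 near KRT19, and 4 rose, up to 0.83 in ITGA6.

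SDC1 (chr2:20200797-20225433, minus strand) had its 2 changed peaks outside the gene. Upstream of the promoter, chr2:20232910-20233119 gave 132, 145 and 136 normalized counts in controls and 164, 196 and 202 with dm-αKG (0.42 ± 0.13, adjusted p = 0.016). All treated libraries were higher, and the call was lost without control 1 (0.40), dm-αKG 2 (0.38) or dm-αKG 3 (0.37), and with DESeq2 (0.43). Beyond the 3′ end, chr2:20188990-20189195 gave 64.4, 81.4 and 64.4 in controls and 45.2, 48.8 and 47.9 with dm-αKG (-0.58 ± 0.21, adjusted p = 0.044). It was lower in all treated libraries, but the call did not survive the removal of any of the 6 libraries (-0.64 to -0.45), nor DESeq2 (-0.58), nor total counts as the scaling (-0.57). The strongest SDC1 peak, chr2:20231679-20231891, which lies next to the peak that rose, went from 343 ± 49.2 to 322 ± 15.9 (-0.08 ± 0.10, adjusted p = 0.592). The gene's 13 peaks summed to 1370 ± 61.2 and 1355 ± 81.3 (log2 ratio -0.02).

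ENPEP (chr4:110365733-110565285, plus strand) spans 199553 bp and held 12 of its 14 peaks inside the gene. None passed the test, with log2 fold changes from -0.62 to 0.38 and 10 of 14 below 0. The strongest peak, intergenic at chr4:110587709-110587911, gave 163, 146 and 154 normalized counts in controls and 121, 114 and 144 with dm-αKG (-0.30 ± 0.14, adjusted p = 0.127). The treated libraries were all lower, dm-αKG 3 by little. At 6 of the 14 peaks (42.9%, beside 32.4% of all peaks) the groups did not overlap, 5 of them lower (background 16.9%). The sums were 900, 848 and 853 in controls and 772, 765 and 837 with dm-αKG (log2 ratio -0.13), again without overlap.

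CCKBR (chr11:6259806-6272127, plus strand) and CGA (chr6:87085498-87095106, minus strand) had no peak past the threshold. The strongest CCKBR peak, chr11:6234625-6235020, belonged to the shared promoter region of the neighbours FHIP1B and CNGA4. It gave 1741, 1642 and 1727 normalized counts in controls and 1577, 1802 and 1691 with dm-αKG (-0.01 ± 0.06, adjusted p = 0.899), which overlapped. At the CCKBR promoter, chr11:6259706-6259922, the counts were 131, 133 and 152 in controls and 148, 159 and 184 with dm-αKG (0.23 ± 0.14, adjusted p = 0.246). The CCKBR peak with the smallest p, chr11:6298683-6298889, lay 180 bp from a start of the gene ENSG00000270435. It gave 80.5, 86.3 and 75.3 in controls and 63.1, 60.3 and 53.9 with dm-αKG (-0.44 ± 0.19, adjusted p = 0.103), without overlap. CGA had 3 peaks, all outside the gene and with log2 fold changes of 0.11, 0.27 and 0.23. The strongest of them, chr6:87122481-87122883, lay at the start of the pseudogene RCN1P1 and gave 153, 173 and 163 in controls and 184, 182 and 209.6 with dm-αKG (0.23 ± 0.13, adjusted p = 0.208), without overlap.

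Per 100 bp of peak, the genes differed in level more than the treatments did. In controls, the region of CCKBR held 100.4 ± 2.38 normalized counts per 100 bp (SD, n = 3), most of it in the FHIP1B and CNGA4 peak. KRT8 (66.2 ± 0.973), KRT18 (64.9 ± 1.64), ITGA6 (61.5 ± 3.58) and KRT19 (59.7 ± 1.33) followed, each apart from the next by less than the sum of both SDs. KRT8 and KRT18 share 19 peaks. CGA (53.9 ± 3.00, from 3 peaks), SDC1 (42.7 ± 1.91), KRT7 (31.2 ± 1.24) and ENPEP (25.2 ± 0.828) were lower, each apart from the next by more than the sum of both SDs. With dm-αKG, KRT19 came to 50.5 ± 3.32 and CGA to 62.3 ± 5.75, so that these 2 genes changed places in the order.

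Peaks at transcript starts and away from them differed in their median. The 27 members within 1 kb of a start of a member gene had a median log2 fold change of 0.16, with 2 that fell and 5 that rose. The 44 members within 1 kb of any start had a median of 0.15, with 4 that fell and 5 that rose (20.5%). The 61873 such peaks of the table had a median of 0.09, with 2969 that fell and 6050 that rose (14.6%), so rises outnumbered falls at starts in general. The 75 members further away had a median of -0.02, with 4 that fell and 6 that rose (13.3%). The 109644 such peaks of the table had a median of -0.06, with 15078 that fell and 6693 that rose (19.9%). The shift of the median between starts and distal peaks thus had the same sign in the members and in the table. Away from starts, falls outnumbered rises in the table but not among the few members that changed. By level, 16 members had at least 200 normalized counts on average, and 5 of these fell and 0 rose (7 had an unadjusted p below 0.05 in edgeR). Of all 25401 peaks at that level, 3734 fell and 2245 rose.

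The authors called peaks separately for control and dm-αKG cells, and most members were in both lists. This held for 98 of 119 (82.4%), beside 71.4% of all peaks, while 10 were in the control list only and 11 in the dm-αKG list only. Most members in the control list only had a negative log2 fold change, and most in the dm-αKG list only a positive one. Still, a list did not always give the direction of a peak. The ITGA6 start peak that rose was in the control list only, and the KRT8 peaks at chr12:52896192-52896391 and chr12:52921049-52921248, which also rose, were in the dm-αKG list only.

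Of the 11 families of consensus letters, 5 occurred more often in the members than in the table and 6 less often. In the central 200 bp, CATTCC (TEAD) occurred in 28 of 119 members (23.5%) and in 14.6% of all peaks, CCNCACCC (KLF) in 21.8% and 15.3%, GCCNNNGGC (TFAP2) in 24.4% and 17.9%, and TGANTCA (AP-1) in 10.9% and 6.33%. TGACNNNGC (NRF2) in 8.4% and 9.56%, and TGTTTAC (FOX) in 2.52% and 2.85%, were below the table. So were the letters of the GATA family (AGATAA) in 5.04% and 6.22%, of SOX (AACAATG) in 1.68% and 2.43% and of ETS (CCGGAAG) in 1.68% and 3.36%. The OCT octamer (ATGCAAAT) occurred in 2 of the 119 members and in 3918 of the 171517 peaks, also a smaller share in members, and the letters of GRHL (AACCNGTT) in 1.68% and 1.21%. The median GC content was 58.0% in members and 55.5% in all peaks. Among members, TEAD letters were in 4 of the 8 peaks that fell and 5 of the 11 that rose, and AP-1 letters in 1 of each.

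Peaks at related genes also changed in both directions, beside the 10.5% of all peaks that fell and the 7.43% that rose. Of 78 peaks at 11 other keratin genes, 28 of which are also members, 9 fell (11.5%) and 7 rose (8.97%). Of their 4 promoter peaks, 1 fell and 1 rose. That of KRT15, the member peak described above, fell (log2 fold change -0.65 ± 0.11, adjusted p = 8.05e-06). That of KRT20, a keratin of intestinal epithelium, rose from 10.5 ± 3.72 to 24.0 ± 1.71 (1.17 ± 0.40, adjusted p = 0.0284). The KRT20 peak was weak, beside a median control level of 65.3 over all peaks, and its dependence on single libraries was not examined. Of 415 peaks at genes of desmosomes and junctions, 49 fell (11.8%) and 37 rose (8.92%). Of their 19 promoter peaks, only that of the tight junction gene CLDN3 passed. It rose from 197 ± 18.1 to 301 ± 28.0 (0.62 ± 0.11, adjusted p = 6.4e-06). Of 253 peaks at other integrins, laminins and syndecans, 20 fell (7.91%) and 13 rose (5.14%). Of their 14 promoter peaks, only that of the syndecan gene SDC2 passed, and it rose (0.48 ± 0.16, adjusted p = 0.0215). Of 164 peaks at surface peptidases and receptors, 14 fell (8.54%) and 9 rose (5.49%). Of their 14 promoter peaks, 1 rose and 1 fell. That of MME, the peptidase neprilysin, was up by 0.38 ± 0.11 (adjusted p = 0.00803). That of CCK, a ligand of CCKBR, was down (-0.29 ± 0.10, adjusted p = 0.0341).

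The placental and lineage lists likewise held changes in both directions, beside the same background of 10.5% and 7.43%. Of 144 peaks at placental hormone and fusion genes, 11 fell (7.64%) and 12 rose (8.33%). No promoter peak was found for 12 of the 21 genes, among them CGB3, CGB5 and CGB8, whose β subunits pair with CGA. These CGB genes are near-identical copies that can share reads, so their missing peaks are uncertain. Of the 9 placental promoter peaks, only that of ALPP, the placental alkaline phosphatase, passed. It fell (-0.31 ± 0.09, adjusted p = 0.00662), and its groups overlapped. Of 214 peaks at trophectoderm factors, 19 fell (8.88%) and 16 rose (7.48%). Of their 11 promoter peaks, only that of GCM1, a factor of syncytiotrophoblast formation, passed. It fell (-0.74 ± 0.14, adjusted p = 3.14e-05), while the median log2 fold change of the 11 promoter peaks was -0.05. Of 204 peaks at naive pluripotency markers, 35 fell (17.2%) and 13 rose (6.37%). Of 78 at primed markers, 10 fell (12.8%) and 1 rose (1.28%). Of 10 naive promoter peaks, those of SUSD2 (0.33 ± 0.07) and KLF17 (-0.39 ± 0.09) passed. Of 8 primed promoter peaks, those of DUSP6 (-0.30 ± 0.09) and SFRP2 (-0.42 ± 0.14) passed, with overlapping groups. Of 112 peaks at primitive endoderm markers, 8 fell and 8 rose (7.14% each). Of their 6 promoter peaks, with a median log2 fold change of -0.08, only that of GATA6 passed. It rose (0.31 ± 0.11), and its groups overlapped. Of 61 peaks at mesoderm and fibroblast markers, 2 fell (3.28%) and 1 rose (1.64%). Over all peaks of each list, the medians lay between -0.03 and 0.06 on the log2 scale, beside 0.07 for the members and 0.01 for the whole table.

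**Figure D4:**
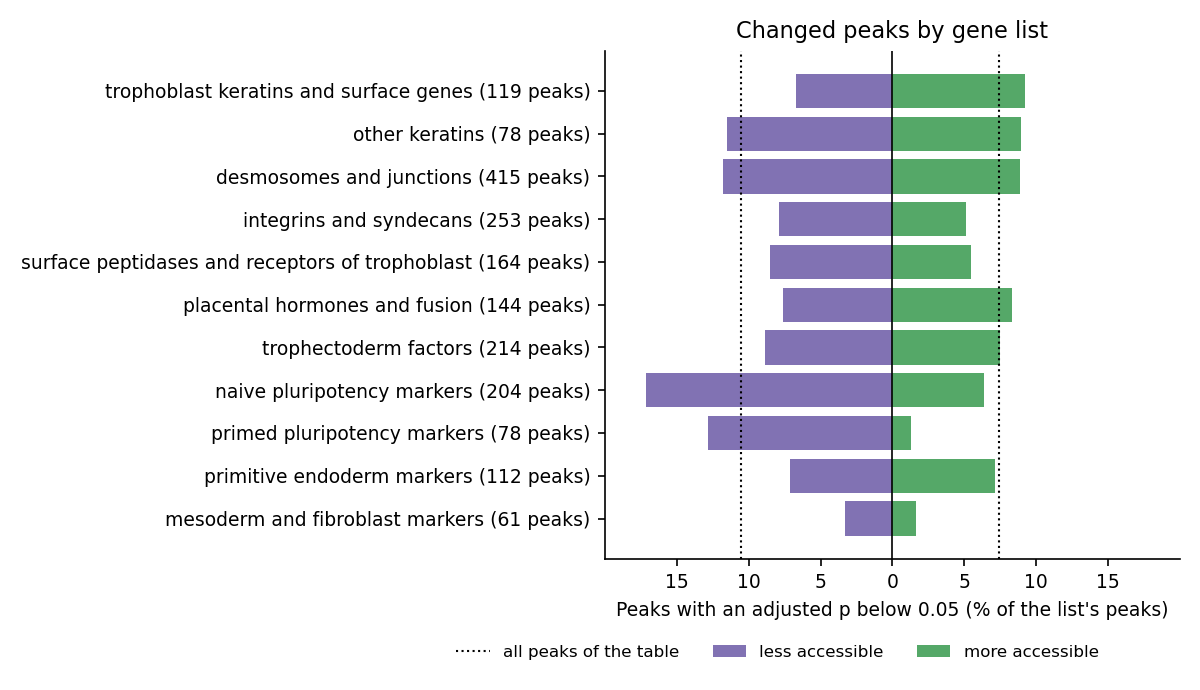
Share of peaks with an adjusted p below 0.05 (x axis, % of the list's peaks) that became less accessible (left, purple) or more accessible (right, green) in each gene list (y axis), with dotted lines at the shares of all peaks, 10.5% and 7.43%. The trophoblast keratins and surface genes stand at 6.72% less and 9.24% more accessible, and the naive pluripotency markers at 17.2% and 6.37%.

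For each gene, the summed level over its peaks was compared across the 6 libraries with those of up to 128 genes of the other lists, as a description that includes the difference between treatments. The most alike were CLDN4 for KRT19 (Pearson's r = 0.95), KRT81 for KRT8 (0.924), KRT6A for KRT7 (0.849), COL1A1 for KRT18 (0.837), SFRP2 for ENPEP (0.951), EPCAM for CCKBR (0.959), LRP2 for CGA (0.965), PKP1 for ITGA6 (0.861) and DPP4 for SDC1 (0.633). With 6 libraries in 2 treatments and this many genes searched, high values arise readily.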

How the data were processed

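ATAC-seq libraries of 3 control and 3 dm-αKG-treated cultures were analysed, grouped by the treatment in the sample labels. The authors processed the reads with the ENCODE pipeline on hg38, once per treatment (trimming, Bowtie 2, MACS2 per replicate, reproducible peaks kept), trimmed each peak to 200 bp at its summit and joined overlapping peaks with bedtools merge. They deposited raw counts of reads per merged peak and library, without normalization. The deposited peak lists hold a pipeline score, a fold enrichment (ratio of signal to background) and −log10 p-values and q-values, and were used only to say which list a peak came from. bcl2fastq 2.20.0.422 and bedtools 2.28.0 are the versions in the submitters' processing notes. The median peak was 204 bp wide.

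Counts were tested with edgeR 4.0.16 (R 4.3.3): TMM scaling, treatment as the single term of the quasi-likelihood model, all 171517 peaks, Benjamini-Hochberg adjustment. Normalized counts are counts divided by the TMM-scaled library size relative to the mean library. Standard errors are the log2 fold change over the square root of F. Every member had a count in every library, the lowest being 3, and no filter on low values was used. On simulated counts of the 171517 peaks with 200 changed by known folds, edgeR recovered 89.5% and DESeq2 1.42.0 recovered 81.0%, with 1 and 0 false calls. Recovery of folds as small as those of the members was not tested. Start positions were converted to count from 1. Genes, exons and starts are from GENCODE 44, motif letters were sought on either strand of the central 200 bp of a peak with pysam 0.24.0 in Python 3.11.15, and sequences were read from hg38. Some promoter sequences are not reported here. Named peaks are, for each gene, the promoter peak, the strongest, that with the smallest p, and all peaks with an adjusted p below 0.05. Genes of the other lists are named where their promoter peak passed, where the promoter had no peak, or as the most alike gene. Members and lists were chosen with earlier results of these data known. Alternatives were DESeq2, other scalings, a count minimum of 10, narrower windows, the replicate number as a block and leaving out each library.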

Additional observations from a re-analysis of the deposited data

How the results depend on the processing

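The counts of changed members depended on the test and on single libraries. Under the strict rule 0 of 119 peaks were called by edgeR, DESeq2, RLE scaling, total counts and a minimum of 10 counts. Leaving out 1 library gave between 0 and 1, the 1 being the ITGA6 intron peak (control replicate 1 left out) or an intergenic KRT19 peak (dm-αKG replicate 1 left out). Dropping the fold threshold gave 10. The count at an adjusted p below 0.05 was 19 with edgeR and 10 with DESeq2 (6 fell, 4 rose), and between 11 and 16 without 1 library (lowest at 11 when control replicate 1 was left out, and 12 for either control replicate 3 or dm-αKG replicate 2). DESeq2 gave an adjusted p for 115 of the 119 members. The rises were reduced most, from 11 to 4 with DESeq2 and to between 4 and 8 without 1 library, and the falls went from 8 to 6 and to between 5 and 8. With peaks restricted to those overlapping a gene, 11 of 58 changed (3 fell, 8 rose). Within 10 kb, 15 of 76 changed (5 fell, 10 rose). Of all peaks of the table, 18.0% changed (10.5% fell, 7.43% rose). Of the 19 changed peaks, 7 passed in every fit that left out 1 library and with DESeq2. They were the KRT8 intron peak, the peak upstream of KRT18, the KRT18 first intron peak, the KRT15 intron peak, both intergenic KRT19 peaks and the ITGA6 intron peak that rose. None of the 19 changed sign in any alternative fit. Among peaks not past the threshold, the sign turned at the FHIP1B and CNGA4 peak near CCKBR (0.00 with total counts, -0.06 to 0.04 without 1 library), the KRT8 promoter peak (-0.01 to 0.25), the strongest SDC1 peak (-0.14 to 0.03) and the ITGA6 promoter peak (0.00 to 0.14). The cause was not tested. The median over the members lay between 0.04 and 0.12 in each of these alternatives.

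The labels give both treatments replicate numbers 1 to 3. Same-numbered libraries did not deviate together (r of deviations from the treatment means -0.016, -0.001 and 0.013), so the numbers were not taken as pairs. With the replicate number as a block, 0 peaks were called under the strict rule and 18 had an adjusted p below 0.05. Of the 19 changed peaks, the KRT8 peak at chr12:52896192-52896391 (0.75) and the SDC1 peak at chr2:20188990-20189195 (-0.56) were past the threshold without the block and not with it.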
